A study of Mus musculus with 8 samples.

Results

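The hypoxia response and glycolysis genes described here are 36 genes that were chosen by name: 1 list of hypoxia-inducible genes and the enzymes that turn glucose into lactate. All 36 had a gene identifier among the 38293 of the bulk tables, and 35 were among the 15150 gene names of the single-cell tables, which do not list Slc16a3. They were measured in organoid lines grown from mouse mammary tumors. The bulk data hold 5 RNA libraries, 2 control lines (WT1 and WT3) and 3 SOX4KO lines (H7, M4 and H4). The single-cell data hold 1 plate of control cells (GR17) and 2 plates of SOX4KO cells (GR18 and GR19).

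The tumors came from MMTV-PyMT; MMTV-Cre; Ecadherin-mCFP mice, so all groups, controls included, carry the PyMT oncogene and Cre under the MMTV promoter, which is active in mammary epithelium, and a fluorescent E-cadherin. SOX4 was disrupted with CRISPR/Cas9 in the SOX4KO lines, and the lines followed in the study were picked for an insertion or deletion on both alleles. All organoids were cultured in Matrigel with B27 and FGF2 and collected on day 4 after they had been split into single cells. No oxygen level is named in the labels or in the methods read here, and no library was labelled as hypoxic. The labels do not tie the single-cell plates to the bulk lines, and the age of the animals is not given in the sources used here.

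Cells sense oxygen through HIF-1α, the product of Hif1a. With oxygen present, the prolyl hydroxylases encoded by the Egln genes mark HIF-1α for destruction, and when oxygen falls the protein is kept, pairs with ARNT and binds short DNA motifs near its target genes. Among these targets are glucose transporters, most glycolytic enzymes, carbonic anhydrases that handle the acid that glycolysis makes, mitophagy factors and the angiogenic factor VEGF-A. In mammary tumors several of them, Car9 among them, are used as markers of poorly oxygenated tissue. HIF-1α is controlled mainly at the protein level, which was not measured here.

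The bulk libraries held 3050323 to 4678497 reads on genes, and the single-cell libraries held 369, 369 and 362 cells with 7714119 to 8296953 UMIs in all. Epithelial markers were plentiful, at a summed level of 2570 and 2723 CPM (counts scaled to a library total of 1e+06) in the control lines, 1767 to 2367 CPM in the SOX4KO lines and 1783 to 2119 CPM in single cells. Basal epithelial markers summed to 509 and 677 CPM in the control lines and 667 to 1451 CPM in the SOX4KO lines (0.74 as the median of their log2 fold changes), and to 3680 CPM in GR17 and 1662 CPM in GR19, with GR18 between them. Of 6 basal markers tested, 1 rose and 0 fell at an adjusted p under 0.1, where 4.10% and 2.17% of all genes did. The 1 was the oxytocin receptor gene Oxtr (log2 fold change 2.03, adjusted p = 0.0256). Of 7 epithelial markers tested, 0 were called in edgeR and 1 had an unadjusted p under 0.05. Endothelial markers summed to 1.04 to 2.52 CPM in bulk, with 4 to 5 of 6 markers at 0 in each library, and leukocyte markers to 1.59 to 14.4 CPM, the highest in H7. Sox4 itself was at 295 and 374 CPM in WT1 and WT3, and at 199, 179 and 299 CPM in H7, M4 and H4. Its log2 fold change was −0.57 (SE 0.25) with an adjusted p of 0.277 in edgeR, so the reads do not separate the genotypes by Sox4 level, and an insertion or deletion need not remove the transcript. The study reported that SOX4 protein was absent on western blots of the SOX4KO lines it first selected. The cycling markers summed to 567 and 603 CPM in the control lines and 262 to 401 CPM in the SOX4KO lines. Of the 8, 5 fell in the SOX4KO lines, where 2.17% of all genes did. The 5 were Ccnb1 (log2 fold change −1.48, adjusted p = 0.0275), Mcm3 (−1.05, adjusted p = 0.0530), Mcm5 (−1.22, adjusted p = 0.0692), Top2a (−0.78, adjusted p = 0.0718) and Mki67 (−0.85, adjusted p = 0.0822). Cycling markers were thus lower in the SOX4KO lines, and the epithelial and basal sums differed between lines and libraries. The part of these markers in the results below was not tested. Fewer cells of a type and less RNA per cell cannot be told apart in bulk.

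In bulk, 5 of the 34 members that passed the filter on low counts rose in SOX4KO lines and 0 fell. The 5 were Car12, Car9, Pfkp, Bnip3 and Ddit4, with rises of 1.62 to 2.25-fold. The threshold was an adjusted p under 0.1, which 4.10% of the 11682 genes in the fit passed upward and 2.17% downward. The median log2 fold change was 0.31 over the members and 0.01 over all genes, and 30 of the 34 members were above 0. At an unadjusted p under 0.05, 11 members were higher, where 10.4% of all genes were, and 1, Kdm3a, was lower, where 7.68% were, and DESeq2 also called 0 members lower. All 3 SOX4KO lines lay above both control lines for 16 tested members, where 19.0% of all genes did so, and below both for Pkm and Kdm3a, where 17.9% of all genes did. The calls rested on having both control lines, because leaving out either WT1 or WT3 left 0 members called, with 10 and 5 members higher at an unadjusted p under 0.05, where 6.93% and 5.08% of all genes were, and 0 lower, where 4.14% and 2.95% were. The genes called among all genes fell as well, from 733 to 130 without WT1 and 56 without WT3, while the log2 fold changes of the 5 kept their sign, at 1.01 and 1.03 for Bnip3, 0.75 and 1.05 for Car9, 1.55 and 0.87 for Car12, 1.23 and 0.85 for Pfkp and 0.57 and 0.83 for Ddit4. In those fits the remaining control line is assumed to vary as the SOX4KO lines do.

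**Figure D1:**
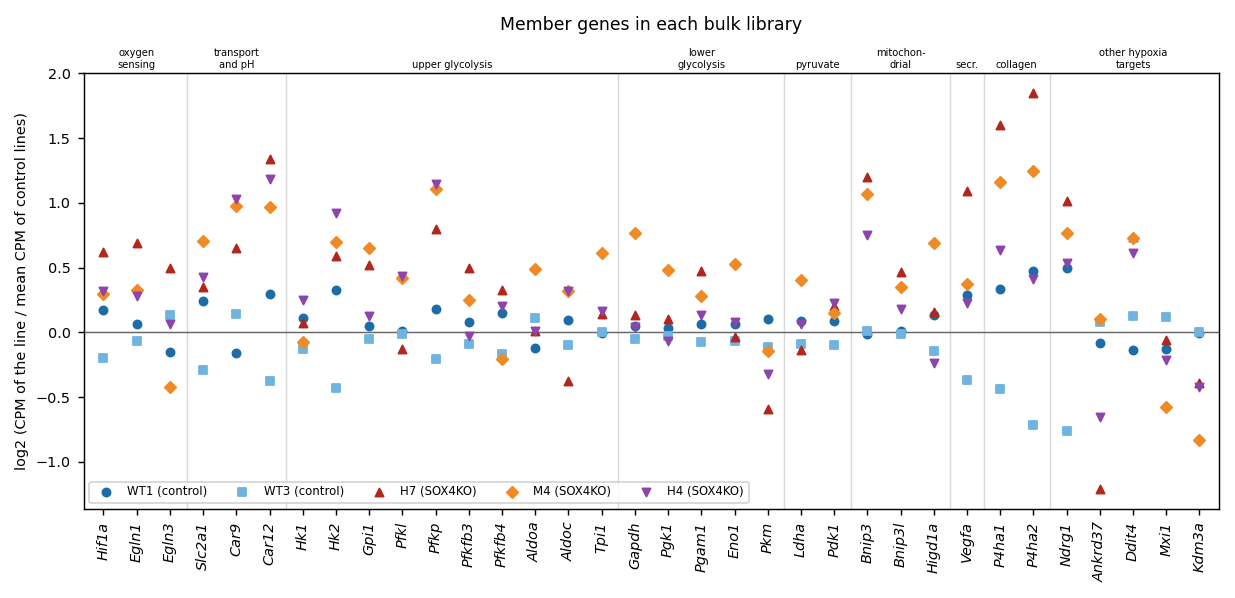
Each point is the level of a member gene in 1 bulk line as log2 of its CPM over the mean CPM of the 2 control lines, for the 34 tested members grouped by role. All 3 SOX4KO lines lie above both control lines for Car9, Car12, Pfkp, Bnip3 and Ddit4, and below both for Pkm and Kdm3a.

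Carbonic anhydrases convert carbon dioxide and water to bicarbonate and protons, and CA9 and CA12, which sit on the cell surface, buffer the acid of tumor cells. Car12 was at 380 and 238 CPM in WT1 and WT3, and at 782, 603 and 704 CPM in H7, M4 and H4. The groups did not overlap, and the log2 fold change was 1.17 (SE 0.25) with an adjusted p of 0.0486. Car9 was at 14.8 and 18.1 CPM in WT1 and WT3 and at 25.8, 32.4 and 33.5 CPM in H7, M4 and H4. Here too every SOX4KO line lay above both control lines, by 0.89 on the log2 scale (SE 0.23, adjusted p = 0.0785). Slc2a1, the glucose transporter GLUT1, was at 89.8 and 62.1 CPM in the control lines and at 96.8, 124 and 102 CPM in H7, M4 and H4. The groups did not overlap, yet the log2 fold change of 0.50 (SE 0.22) did not pass, with an adjusted p of 0.270. Slc16a3, the lactate exporter MCT4, had 0 reads in both control lines and 1 read in each SOX4KO line, which is under the limit of 3 reads that a count of 0 allows.

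Bnip3 encodes an outer mitochondrial membrane protein that drives mitophagy. It was at 42.5 and 43.2 CPM in WT1 and WT3, and at 98.6, 89.99 and 72.3 CPM in H7, M4 and H4. The control lines were nearly equal, every SOX4KO line was clearly above them, and the log2 fold change was 1.02 (SE 0.19, adjusted p = 0.0361). Its relative Bnip3l was at 59.5 and 58.6 CPM in the control lines and at 81.7, 75.2 and 67.1 CPM in the SOX4KO lines, a log2 fold change of 0.34 that did not pass (adjusted p = 0.354). Higd1a, a mitochondrial inner membrane protein, overlapped between the groups, with a log2 fold change of 0.24 (adjusted p = 0.737).

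Ddit4 encodes REDD1, an inhibitor of mTORC1 that is also induced by other stresses. It was at 139 and 166 CPM in the control lines and at 255, 253 and 233 CPM in H7, M4 and H4. The 3 SOX4KO lines were close together and above both control lines, with a log2 fold change of 0.69 (SE 0.17, adjusted p = 0.0765). Pfkp, the platelet isoform of phosphofructokinase and the committed step of glycolysis, was at 46.9 and 35.8 CPM in WT1 and WT3 and at 72.0, 89.3 and 91.7 CPM in H7, M4 and H4. The groups did not overlap and the log2 fold change was 1.03 (SE 0.21, adjusted p = 0.0417). Without H7, Ddit4 was no longer called, and without H4, Car9 was no longer called while P4ha1 and P4ha2 were.

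The promoters of the 5 members that rose are shown because HIF binds ACGTG and GCGTG in front of its target genes. They are RefSeq sequences of GRCm38.p6, which is not the build named for these libraries, and each runs from 250 bases before to 50 bases after an annotated start, on the strand of the gene. Capitals mark ACGTG or GCGTG on either strand, so that CACGT and CACGC are marked as well, and overlapping matches run together.
Bnip3 (chr7:138909457-138909756, minus strand): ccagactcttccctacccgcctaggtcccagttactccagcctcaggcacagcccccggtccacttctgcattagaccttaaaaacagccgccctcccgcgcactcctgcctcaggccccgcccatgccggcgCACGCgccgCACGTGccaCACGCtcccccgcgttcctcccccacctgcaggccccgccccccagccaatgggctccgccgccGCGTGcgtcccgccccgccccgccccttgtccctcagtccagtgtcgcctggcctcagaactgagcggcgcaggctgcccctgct
Car9 (chr4:43506776-43507075, plus strand): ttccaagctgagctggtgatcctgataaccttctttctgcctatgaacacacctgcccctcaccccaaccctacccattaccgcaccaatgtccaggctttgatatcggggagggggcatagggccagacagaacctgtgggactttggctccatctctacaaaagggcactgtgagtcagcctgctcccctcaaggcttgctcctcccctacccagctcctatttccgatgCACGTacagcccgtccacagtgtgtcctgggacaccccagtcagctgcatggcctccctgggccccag
Pfkp (chr13:6648722-6649021, minus strand): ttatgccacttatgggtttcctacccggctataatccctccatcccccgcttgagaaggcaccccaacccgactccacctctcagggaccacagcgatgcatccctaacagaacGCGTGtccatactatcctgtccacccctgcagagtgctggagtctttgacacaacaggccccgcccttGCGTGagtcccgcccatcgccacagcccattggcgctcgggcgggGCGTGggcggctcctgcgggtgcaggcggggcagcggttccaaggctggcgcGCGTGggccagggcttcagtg
Ddit4 (chr10:59951721-59952020, minus strand): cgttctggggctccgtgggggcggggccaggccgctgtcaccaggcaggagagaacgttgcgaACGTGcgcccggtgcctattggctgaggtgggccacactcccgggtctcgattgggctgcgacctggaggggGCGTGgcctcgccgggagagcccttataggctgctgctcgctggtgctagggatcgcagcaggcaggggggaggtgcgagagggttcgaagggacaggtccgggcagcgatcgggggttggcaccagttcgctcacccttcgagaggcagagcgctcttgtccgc
Car12 (chr9:66713436-66713735, plus strand): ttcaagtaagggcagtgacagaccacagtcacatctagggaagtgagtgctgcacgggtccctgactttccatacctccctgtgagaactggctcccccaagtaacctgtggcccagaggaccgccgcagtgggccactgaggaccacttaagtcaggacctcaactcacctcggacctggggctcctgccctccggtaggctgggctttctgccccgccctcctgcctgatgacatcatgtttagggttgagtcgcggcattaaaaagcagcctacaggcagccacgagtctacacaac

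The Bnip3 window holds 5 matches, the first bases of which lie 117, 108, 107, 99 and 35 bases before the start, the palindrome CACGTG being counted on both strands. The Pfkp window holds 4 matches, the Ddit4 window 2 and the Car9 window 1, which begins 18 bases before the start. The Car12 window holds 0, which says only that these letters are not in this window. A match was present in at least 1 window of 31 of the 34 members that have a RefSeq promoter (91.2%). It was present for 46.7% of 27025 genes and for 69.5% of the 8941 bulk-tested genes that have one. Members have more windows per gene, 49 for 34 genes against 32851 for 27025, and counted by window a match was present in 77.6% of those of members and 43.8% of all. The members were chosen by name as hypoxia-inducible genes and glycolytic enzymes, so these shares describe the list and not these libraries. Ndrg1 and Bnip3l have no entry in the promoter table.

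Among the oxygen sensors, Hif1a was at 195 and 151 CPM in WT1 and WT3 and at 266, 213 and 215 CPM in H7, M4 and H4. All SOX4KO lines lay above the controls, with H7 highest, and the log2 fold change of 0.42 (SE 0.20) did not pass (adjusted p = 0.315). Egln1, the main prolyl hydroxylase of HIF-1α and itself a target, had the lowest p of the 3 sensors. It was at 93.2 and 85.0 CPM in the controls and at 144, 112 and 108 CPM in H7, M4 and H4, a log2 fold change of 0.45 (SE 0.19, adjusted p = 0.269). Egln3 overlapped between the groups, with H7 highest at 346 CPM and M4 lowest at 183 CPM.

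Members with the largest fold changes that were not called were the collagen prolyl hydroxylases, which hydroxylate proline in collagen. P4ha1 was at 115 and 67.3 CPM in WT1 and WT3 and at 277, 204 and 142 CPM in H7, M4 and H4. Its log2 fold change of 1.19 (SE 0.33) lay just outside the threshold, with an adjusted p of 0.102, and DESeq2 called it. P4ha2 was at 15.0 and 6.57 CPM in the controls and at 38.9, 25.6 and 14.4 CPM in the SOX4KO lines. Here H4 overlapped with WT1, and the log2 fold change of 1.30 (SE 0.48) had an adjusted p of 0.203.

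Ndrg1, a stress-inducible gene of epithelial differentiation, was at 159 and 66.5 CPM in WT1 and WT3 and at 229, 193 and 164 CPM in H7, M4 and H4. WT1 was nearly as high as H4, and the log2 fold change of 0.79 (SE 0.34) had an adjusted p of 0.274. The value turned on the control lines, at 1.55 without WT1 (adjusted p = 0.104) and 0.29 without WT3 (adjusted p = 0.923). Vegfa, the angiogenic growth factor, was at 141 and 89.6 CPM in the controls and at 247, 149 and 135 CPM in the SOX4KO lines. H7 was far above all other lines while H4 overlapped with WT1, and the log2 fold change of 0.62 (SE 0.31) had an adjusted p of 0.340. Adm, the vasodilator adrenomedullin, had 0 and 1 reads in WT1 and WT3 and 10, 0 and 2 reads in H7, M4 and H4, and was not tested. Ankrd37 (−0.53), Mxi1 (−0.27) and Kdm3a (−0.53), a histone demethylase, had negative log2 fold changes. For Kdm3a the lines were at 129 and 129 CPM in the controls and at 98.6, 72.4 and 96.3 CPM in H7, M4 and H4, without overlap (SE 0.19, adjusted p = 0.180).

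Most glycolytic enzymes differed little in bulk. Hexokinase 2 (Hk2), the inducible hexokinase, was at 11.1 and 6.57 CPM in the controls and at 13.3, 14.4 and 16.8 CPM in the SOX4KO lines, a log2 fold change of 0.76 (SE 0.32, adjusted p = 0.257). The groups did not overlap, but WT1 and WT3 lay far apart from each other. Ldha, which makes lactate from pyruvate, was at 1025 and 907 CPM in WT1 and WT3 and at 880, 1280 and 1010 CPM in H7, M4 and H4. Its groups overlapped (log2 fold change 0.13, SE 0.22, adjusted p = 0.819). Pdk1, which keeps pyruvate from mitochondrial oxidation by inhibiting pyruvate dehydrogenase, was at 110 and 96.6 CPM in the controls and at 119, 114 and 120 CPM in the SOX4KO lines (log2 fold change 0.19, SE 0.16, adjusted p = 0.601). Pgam1, phosphoglycerate mutase, had the lowest p among the lower glycolytic enzymes. It was at 49.96 and 45.4 CPM in the controls and at 66.3, 58.0 and 52.4 CPM in the SOX4KO lines (log2 fold change 0.31, adjusted p = 0.438). The other upper enzymes had log2 fold changes from 0.09 for Hk1 to 0.45 for Gpi1, among them Pfkl, Pfkfb3, Pfkfb4, Aldoa, Aldoc and Tpi1. Gapdh, Pgk1 and Eno1 had 0.35, 0.19 and 0.21, and the pyruvate kinase Pkm had −0.34 (adjusted p = 0.464).

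The 3 SOX4KO lines did not carry the same members at their highest level. M4 was the highest of the 5 lines for 7 of 14 glycolytic enzymes, where it was highest for 25.7% of all genes tested, and H4 was highest for 5 of them and for 16.8% of all genes. H7 was highest for 13 of the 20 other tested members, where it was highest for 22.1% of all genes. Over the glycolytic enzymes the median log2 ratio to the control mean was 0.49 in M4, 0.13 in H4 and 0.09 in H7. Over the other members it was 0.56 in H7, 0.36 in M4 and 0.25 in H4. Each SOX4KO line is 1 library, so this is a description. M4 also had the fewest reads, the largest share of mitochondrial reads (7.66%, against 3.97% to 5.45% in the other lines) and the largest share of uniquely placed reads outside genes (64.7%, against 46.6% to 55.6%). The part of these shares in the M4 values was not tested.

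In the single-cell libraries the members stood further apart. UMIs of all cells were summed in each library, and a gene was counted as higher when GR18 and GR19 both exceeded GR17 by at least 1.5-fold, among genes with a mean of at least 20 CPM. With 1 control library there is no test, and the intervals cover counting error only. By this rule 16 of 29 members over the minimum were higher and 0 were lower, where 5.39% of 6303 genes were higher and 2.65% were lower. The median log2 ratio of the members was 0.92 in GR18 and 0.61 in GR19, against 0.01 and −0.05 over all genes. GR18 was the higher SOX4KO library for 27 of the 29 members, and for 59.1% of all genes.

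Bnip3 stood furthest apart. It was at 34.2 CPM in GR17 (95% Poisson interval 30.2 to 38.6), 293 CPM in GR18 (282 to 305) and 174 CPM in GR19 (165 to 183). The ratio to the control library was 8.57 (interval 7.54 to 9.77) in GR18 and 5.09 (4.46 to 5.82) in GR19. Car9 was at 30.2, 177 and 122 CPM in GR17, GR18 and GR19, which is 5.87 (5.10 to 6.77) and 4.05 (3.51 to 4.69) times the control library. Car12 was at 173, 476 and 350 CPM, with ratios of 2.75 and 2.03. Ndrg1 was at 24.9, 81.5 and 75.1 CPM, with ratios of 3.28 and 3.02. For these 4 genes every SOX4KO interval lay well above that of the control library, and Bnip3, Car9 and Car12 are also 3 of the 5 that rose in bulk.

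Vegfa was at 38.2, 127 and 91.6 CPM in GR17, GR18 and GR19, with ratios of 3.33 (2.92 to 3.80) and 2.40 (2.09 to 2.75). Aldoc, the aldolase isoform known from brain, was at 109, 340 and 272 CPM, with ratios of 3.12 (2.89 to 3.38) and 2.50 (2.31 to 2.71). In bulk Aldoc overlapped between the groups, at 323 and 283 CPM in the controls and 234, 378 and 378 CPM in H7, M4 and H4. Bnip3l was at 62.2, 178 and 153 CPM, and Pdk1 at 22.9, 59.8 and 40.4 CPM. The other members past the fold were Egln3, Hk1, Kdm3a, Ldha, P4ha1, Pfkp, Pgam1 and Pgk1. Kdm3a, at 29.7, 45.9 and 47.6 CPM, was higher in both SOX4KO libraries and lower in all SOX4KO bulk lines.

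The glycolytic enzymes formed a graded series. Ldha was at 1876, 3557 and 2887 CPM in GR17, GR18 and GR19, ratios of 1.90 and 1.54. Pgk1 was at 1073, 2181 and 1683 CPM and Pgam1 at 1260, 2477 and 1926 CPM. In bulk Pgk1 was at only 203 to 297 CPM and Pgam1 at 45.4 to 66.3 CPM, and the cause of this gap in level was not tested. Aldoa, at 923, 1973 and 1221 CPM, and Tpi1, at 708, 1526 and 960 CPM, were more than 1.5-fold higher in GR18 only. Gapdh was at 650, 1112 and 643 CPM, and the interval of GR19 over GR17 held 1 (ratio 0.99, interval 0.95 to 1.03). Pkm was the only 1 of the 29 members that was lower in both SOX4KO libraries, at 5297, 4778 and 3648 CPM. Eno1 had only 14, 11 and 8 UMIs, while Gm5506, listed beside it, had 98, 122 and 117. It is a near-identical copy of Eno1, so the level of Eno1 in single cells is uncertain, and in bulk reads may likewise be shared with Eno1b.

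Hif1a was at 76.4, 134 and 115 CPM in GR17, GR18 and GR19, ratios of 1.76 and 1.5, and did not reach the fold on CPM plus 1 in GR19. Egln1, Slc2a1, Hk2, Gpi1, Pfkl, Higd1a, Ddit4 and Mxi1 were likewise above the control library in both, but under 1.5-fold in at least 1. Slc2a1 was at 103, 162 and 118 CPM and Ddit4 at 179, 324 and 219 CPM. P4ha2, Pfkfb3, Pfkfb4, Ankrd37, Eno1 and Adm were under the minimum. P4ha2 had 41, 152 and 108 UMIs, and Adm had 0, 1 and 8 UMIs, where a count of 0 in GR17 allows up to 0.389 CPM.

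**Figure D2:**
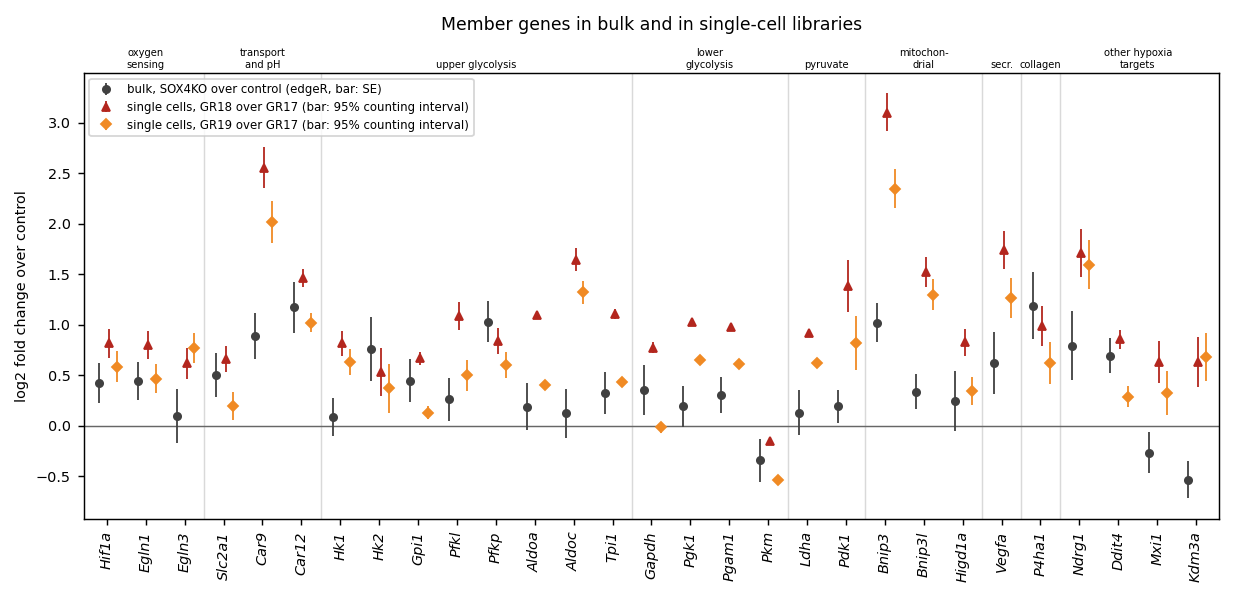
For the 29 members over 20 CPM in single cells, the grey points give the log2 fold change of SOX4KO over control lines in bulk with its standard error, and the coloured points give the log2 ratio of GR18 and GR19 to GR17 with the 95% counting interval. Bnip3 and Car9 lie furthest above 0 in single cells in both libraries, Pkm lies below 0 in all 3, and Kdm3a is below 0 in bulk and above 0 in single cells.

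The scale of the single-cell ratios depends on the spike-ins. GR18 had 62.3 UMIs of mouse genes for each UMI of the ERCC spike-ins, and GR17 and GR19 had 125 and 129. Scaling to the spike-ins moved the median log2 ratio of all genes in GR18 to −0.98, and the members' median with it to −0.08, with only 12 of 29 members above 0 in GR18. The distance between the members' median and that of all genes is nearly fixed under such a scaling. On the spike-in scale 5 members (Aldoc, Bnip3, Car9, Ndrg1 and Vegfa) were 1.5-fold higher in both and 0 were lower, where 0.815% of 5767 genes were higher and 5.72% lower. The spike-in scaling was chosen after the totals had been seen. Mitochondrial genes took 11.4%, 12.47% and 15.1% of UMIs and Rn45s 5.01%, 3.38% and 6.01% in GR17, GR18 and GR19, and without these rows 17 members were higher by the rule, where 6.47% of 6894 genes were, and 0 were lower, where 2.42% were.

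The share of cells with a UMI rises with the mean level, so the shares below show the same difference per cell and not a separate one, and a cell with 0 UMIs may still hold the transcript. After each cell was thinned to 5000 UMIs, Bnip3 was seen in 12.2% of 361 cells in GR17 (exact binomial interval 9.0% to 16.0%), 62.2% of 365 cells in GR18 (57.0% to 67.2%) and 43.3% of 358 cells in GR19 (38.1% to 48.6%). Before thinning the shares were 32.5%, 88.6% and 75.4%. Car9 was seen in 14.4%, 53.4% and 38.3% of thinned cells in GR17, GR18 and GR19, and in 33.3%, 85.4% and 73.2% before thinning. At equal depth both genes were seen in a minority of the control cells and in 38.3% to 62.2% of the SOX4KO cells. Vegfa was seen in 14.1%, 37.5% and 27.7% of thinned cells and Ndrg1 in 9.4%, 22.7% and 20.9%. For Ndrg1 the unthinned shares were 27.1%, 41.5% and 42.5%, and the cell with most UMIs held 13, 30 and 62 of them. Ndrg1 was seen in fewer cells than Bnip3 in every library. Thinning left out 8, 4 and 4 cells. No cell type that should lack these genes was named on the plates to set a background.

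**Figure D3:**
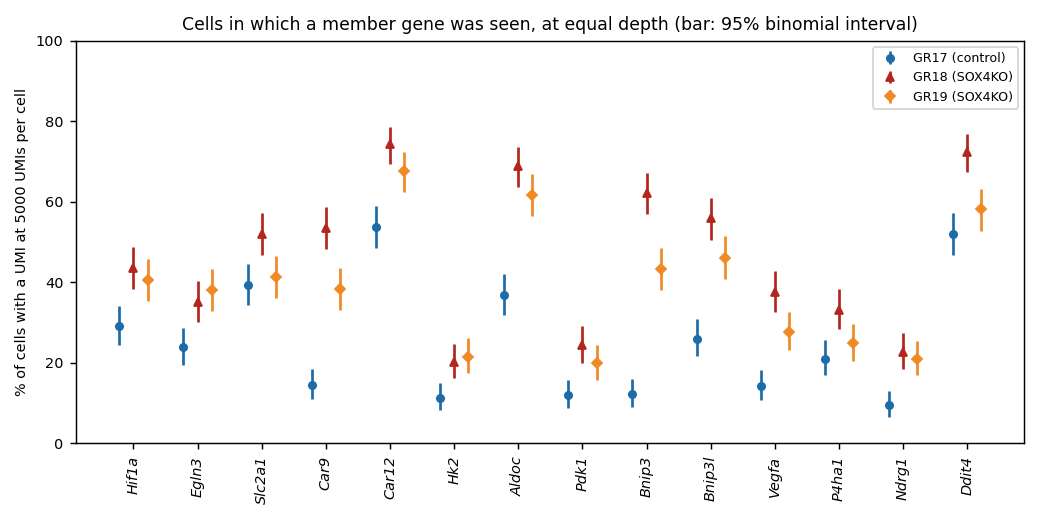
Points give the percentage of cells with at least 1 UMI of a gene after thinning to 5000 UMIs per cell, with the exact 95% binomial interval, in GR17 (control), GR18 and GR19 (SOX4KO). Bnip3 shows the widest gap between GR17 and each SOX4KO library, while the Slc2a1 intervals of GR17 and GR19 overlap.

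Cells were then divided by whether they held a UMI of Top2a, the topoisomerase that cells make in S, G2 and M phase. A Top2a UMI was present in 287 of 369 cells in GR17 (77.8%), 228 of 369 in GR18 (61.8%) and 217 of 362 in GR19 (59.9%). Cells with a Top2a UMI were deeper, with a median of 21459, 23138 and 25360 UMIs against 15142.5, 15592 and 16627 in cells without. The UMIs of each class were summed in each library, and the 6 sums were compared in edgeR with the library as a block.

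Members were lower in cells with Top2a. Of 33 members tested, 27 fell and 0 rose, where 14.0% of 10393 genes were called lower and 14.7% higher. The median log2 fold change of cells with over cells without Top2a was −0.34 for the members and −0.02 for all genes. At an unadjusted p under 0.05, 0 members were higher, and DESeq2 called 0 higher. DESeq2 called 16 of 35 members lower, and 918 of all genes in either direction. With all cells thinned to 5000 UMIs, edgeR called 19 of 31 members lower, and 1068 of all genes in either direction. The share of all genes called lower was not taken for these settings. Without the library block edgeR called 0, and 4 members had an unadjusted p under 0.05, all lower, since the libraries then count as spread.

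Ndrg1 differed most. It was at 46.5 CPM in cells without and 20.6 CPM in cells with Top2a in GR17, at 148 and 53.4 CPM in GR18, and at 155 and 38.4 CPM in GR19. The level without Top2a was the higher in every library, and the log2 fold change was −1.67 (SE 0.12, adjusted p = 3.95e-09). Vegfa was at 61.2 and 33.6 CPM without and with Top2a in GR17, 196 and 97.9 CPM in GR18, and 135 and 71.6 CPM in GR19. Its ratio was close to the same in all 3 libraries (1.82, 2.01 and 1.89), with a log2 fold change of −0.98 (SE 0.09, adjusted p = 4.67e-08). Bnip3 was at 50.3 and 31.0 CPM in GR17, 410 and 244 CPM in GR18, and 286 and 122 CPM in GR19 (log2 fold change −0.97, SE 0.09, adjusted p = 9.40e-08). Even its lowest SOX4KO level, in GR19 cells with Top2a, was above its highest control level. Pfkfb3, the activator of phosphofructokinase that responds to oxygen, had a log2 fold change of −1.55 (SE 0.18, adjusted p = 1.68e-06).

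Car12 was at 195 and 168 CPM without and with Top2a in GR17, 664 and 396 CPM in GR18, and 526 and 269 CPM in GR19 (log2 fold change −0.73, SE 0.09, adjusted p = 3.61e-06). Car9 was at 30.2 CPM in both classes of GR17, on only 39 UMIs in cells without Top2a. The interval of that ratio was wide, at 0.69 to 1.42. Without and with Top2a, Car9 was at 214 and 162 CPM in GR18 and 171 and 99.8 CPM in GR19. Its log2 fold change was −0.55 (SE 0.10, adjusted p = 3.83e-04). Aldoc had a log2 fold change of −0.80, Mxi1 −0.70, Ankrd37 −0.97 and P4ha2 −0.85, the last pair on few UMIs. Ldha, Pkm, Pgk1, Tpi1, Gapdh and Gpi1 also fell, by smaller steps of 0.17 to 0.24 on the log2 scale, and Aldoa fell by 0.33. Hif1a (−0.04), Hk2 (−0.03), Pfkp (0.00), Pgam1 (−0.06), Hk1 (−0.16) and Pfkfb4 (−0.09) were not called. Eno1 and Adm were not tested.

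The step between classes was wider in the SOX4KO libraries for many members. The median log2 ratio of cells without over cells with Top2a was 0.05 in GR17, 0.38 in GR18 and 0.44 in GR19, against −0.0049 to 0.014 over all genes. The counting interval of the ratio lay above 1 for 9 of 33 members in GR17, 25 in GR18 and 26 in GR19. The share of all genes was not taken for this rule, and genes with more UMIs have narrower intervals. In GR17 the 9 included Ndrg1, Vegfa, Bnip3, Aldoc, Pfkfb3 and P4ha2, while Aldoa, Tpi1, Gapdh, Pgk1, Pkm and Ldha had ratios of 0.97 to 1.01. GR17 had fewer cells without Top2a (82, against 141 and 145), which widens its intervals. The counts of intervals above 1 are therefore not comparable between GR17 and the SOX4KO libraries. Pgam1 lay below 1 in GR17 (ratio 0.93, interval 0.88 to 0.99). The difference between genotypes in this step was not tested, since there is 1 control library.

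**Figure D4:**
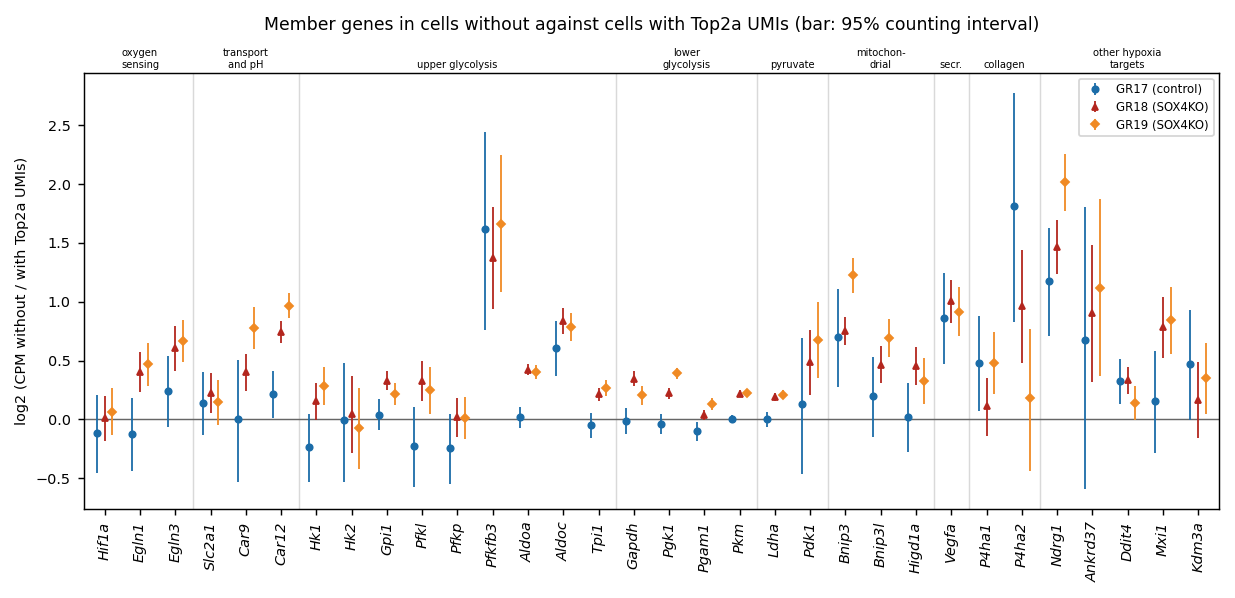
Points give log2 of the CPM in cells without over the CPM in cells with Top2a UMIs, with the 95% counting interval, in GR17 (control), GR18 and GR19 (SOX4KO), for the tested members other than Pfkfb4, which had 0 UMIs in 1 class. Ndrg1 and Pfkfb3 lie far above 0 in all 3 libraries, while enzymes such as Aldoa, Pgk1 and Ldha lie at 0 in GR17 and above 0 in GR18 and GR19.

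The difference between libraries was present within each class. In cells without Top2a, 20 of 30 members were 1.5-fold higher in both SOX4KO libraries and 0 were lower. Of all 6223 genes there, 7.70% were higher and 348 genes were lower. The members' median log2 ratios were 1.11 in GR18 and 0.77 in GR19. In cells with Top2a, 8 of 29 members were higher and 0 were lower, with medians of 0.86 and 0.54. Of all 6304 genes there, 4.74% were higher and 118 genes were lower. The 8 were Aldoc, Bnip3, Bnip3l, Car12, Car9, Kdm3a, Ndrg1 and Vegfa. These 8 were thus higher in both classes or in the class with Top2a alone, as Kdm3a was, at unequal shares of cells without Top2a between the libraries.

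**Figure D5:**
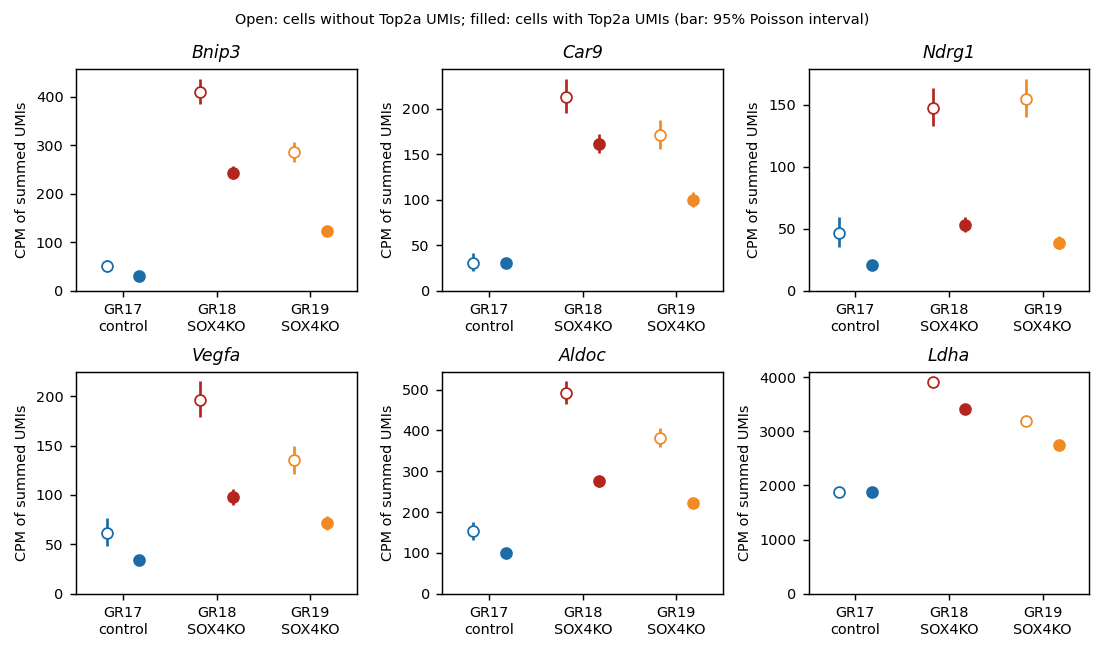
Each panel gives the CPM of summed UMIs of 1 gene in cells without (open) and with (filled) Top2a UMIs in GR17, GR18 and GR19, with the 95% Poisson interval. In all 6 panels both SOX4KO libraries lie above GR17 in both classes. For Car9 and Ldha the 2 classes of GR17 have nearly the same CPM, on few UMIs for Car9.

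Across thinned cells of a library the members' UMI counts were weakly related. Over the 253 pairs of the 23 members with a mean of at least 0.2 UMIs per cell in every library, the median Spearman correlation was 0.07 in GR17 (361 cells), 0.16 in GR18 (365 cells) and 0.15 in GR19 (358 cells), against 0.0010 to 0.0030 over all gene pairs. The gene pairs set beside them were of all genes with that mean in the library, and were not matched to the members in level. Such values share a library and sparse counts at equal depth, and are given as a description. The pair with the highest of the lowest values was Tpi1 and Pgk1 (0.29, 0.43 and 0.53), and Pgk1 with Bnip3 reached 0.23, 0.46 and 0.51.

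Other genes of the same pathways were taken from lists that were drawn up with earlier results of these data known. Of 32 tested among 41 other hypoxia genes, 4 rose and 1 fell in SOX4KO bulk lines, where 4.10% and 2.17% of all genes did. The median of their log2 fold changes was 0.15. Epas1, which encodes HIF-2α, was at 68.9 and 46.4 CPM in the controls and 143, 98.6 and 143 CPM in H7, M4 and H4 (log2 fold change 1.16, adjusted p = 0.0501). In single cells it was at 94.4 CPM in GR17 and lower, at 64.7 and 58.9 CPM, in GR18 and GR19. Bhlhe40 (1.03, adjusted p = 0.0456) and Bhlhe41 (1.08, adjusted p = 0.0348), transcriptional repressors of the clock and of hypoxia responses, and Pgm1 (0.81, adjusted p = 0.0561), which links glycogen to glycolysis, also rose. The transferrin receptor Tfrc fell (log2 fold change −0.92, adjusted p = 0.0288). In single cells 10 of 26 of these genes were 1.5-fold higher in both SOX4KO libraries and 0 were lower, where 5.39% and 2.65% of all genes were. Among the 10 were Ero1l at 42.4, 150 and 107 CPM and Plod1 at 16.5, 58.9 and 37.6 CPM in GR17, GR18 and GR19. Neither was called in bulk (adjusted p = 0.265 and 0.371 in edgeR). Between Top2a classes 14 of 31 fell with Top2a and 1, Tfrc, rose, where 14.0% and 14.7% of all genes did.

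Of 10 tested among 21 other glycolysis genes, 2 rose and 1 fell in bulk, where 4.10% and 2.17% of all genes did. Slc16a1, the lactate and pyruvate transporter MCT1, rose by 1.40 (adjusted p = 0.0229) and Eno2, an enolase isoform, by 2.28 (adjusted p = 0.0577) on the log2 scale. Fbp1, which runs the phosphofructokinase step in reverse, fell by 2.32 (adjusted p = 0.0321), from 6.47 and 7.77 CPM in the controls to 1.30, 1.80 and 1.20 CPM. Their counts were low except for Slc16a1, at 21.5 and 16.9 CPM in the controls and 46.7, 44.3 and 60.1 CPM in the SOX4KO lines. In single cells Slc16a1 was at 62.9, 61.4 and 72.1 CPM in GR17, GR18 and GR19, not past the fold. Of 9 tested genes of pyruvate dehydrogenase and mitochondrial pyruvate import, 0 were called in edgeR, 1 had an unadjusted p under 0.05, and the median log2 fold change was −0.13.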

How the data were processed

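The bulk values are raw gene counts that the authors deposited from htseq-count, after a directional library kit. The single-cell values are deposited counts of UMIs, for each gene in each well of a 384-well plate. Neither was normalized. The submitters' processing notes name the builds NCBIM37 and mm9 and tools such as STAR 2.4.2a and R 3.6.1 without a role, and the build behind each table is not given in the sources used here. Symbols were matched for 36345 of 38293 identifiers. Between 71.6% and 83.9% of the htseq totals fell in rows that name no gene and were left out.

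Bulk counts were tested in edgeR 4.0.16 (R 4.3.3; filterByExpr, TMM, quasi-likelihood test, no covariate), with Benjamini-Hochberg adjustment over all genes tested and calls at an adjusted p under 0.1. A standard error is the log2 fold change over the root of its F statistic. Lines are the replicates in bulk, and nothing says that they came from separate animals, so the bulk p-values measure the spread between lines. Wells with at least 1000 UMIs were kept, ERCC rows were left out of totals, and doublets were not called. The 384 well names are the same on every plate and mark positions only. CPM intervals are exact 95% Poisson intervals, and ratios have exact conditional intervals. Summed UMIs of cells with at least 1 Top2a UMI and cells with none were tested in edgeR with the library as a block. Alternatives included DESeq2 1.42.0, other filters, scalings and thresholds, and each line or library left out. The steps were tested on simulated data.

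The members and gene lists were chosen with earlier results of these data known. All 36 members are named. Values in every line are given for those called in bulk, for Hif1a, Ndrg1, Car9, Vegfa, Slc2a1, Hk2, Pdk1 and Ldha, and for the lowest p in each role group. Genes of other lists are named if called in bulk, at most 5 of lowest p in each list, and the remaining values were chosen after they were seen. Fibroblast markers summed to 57.2 to 102 CPM in bulk and 4.46 to 5.87 CPM in single cells.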

Additional observations from a re-analysis of the deposited data

Results flagged for a closer look

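Kdm3a, which encodes a histone demethylase, lay on opposite sides of the control level in the bulk and the single-cell data. All 3 SOX4KO bulk lines were below both control lines, with a log2 fold change of −0.53 (adjusted p = 0.180 in edgeR), while both SOX4KO single-cell libraries were above the control library, at 45.9 and 47.6 against 29.7 CPM. The difference between the 2 kinds of data was not tested, and the labels do not say whether they come from the same lines.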

How the results depend on the processing

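Bulk calls were limited by 2 control lines. Members called higher numbered 5, with 9 when genes were not filtered, 3 at an adjusted p under 0.05 and 0 to 6 with a line left out, and members lower numbered 0 throughout. All genes called numbered 733, with 1686 without the filter, 354 at the stricter threshold and 56 to 1006 with a line left out. Ldha ranged from a log2 fold change of −0.036 without M4 to 0.24 without H7. Between Top2a classes, members lower numbered 27, with 16 in DESeq2, 0 without the library block and 17 to 29 with a library left out. All genes called there numbered 918 in DESeq2, 1068 in thinned cells, 290 without the block and 1599 to 3007 with a library left out. Among members not called there, signs turned for Pfkp (−0.0094 with DESeq2 size factors, −0.0085 without the block, −0.057 to 0.044 with a library left out), Hif1a (−0.077 to 0.0041 with a library left out) and Hk2 (0.0074 unfiltered, 0.031 with at least 2 Top2a UMIs, 0.15 with Mki67 classes, 0.18 thinned, −0.059 to 0.0052 with a library left out). P4ha1, called lower, was at 0.042 and not called in thinned cells. In single cells, members higher numbered 16, with 7 at 2-fold, 5 on the spike-in scale, 16 without GR18 and 27 without GR19. All genes past the fold numbered 507, with 141 at 2-fold, 314 with a pseudocount of 10 CPM, 220 with a minimum of 50 CPM, 1476 without a minimum, 827 in cells without Top2a, 943 without GR18 and 828 without GR19. The causes were not tested. No paired analysis was possible because replicate numbers were given in accession order and the labels pair no libraries.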
